A study of Mus musculus with 12 samples.

Results

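The comparison described here is that of liver RNA from mice given stromal cells after concanavalin A (Con A) with liver RNA from mice given phosphate-buffered saline (PBS) after it. It takes in 8 of the 12 mice of the series, 4 in the Con A + PBS group and 4 in the Con A + hWJ-MSCs group, with the 4 control mice used to tell whether a gene had also moved with Con A and to estimate the spread between mice. The mice were grouped by their labels, and all 11289 genes of the deposited table entered the comparison. The comparison, its mice and the gene lists used below were chosen with earlier results of these data known. All mice were C57BL/6J, for which the labels give an age of 8 to 10 weeks and the study's methods another age. Con A was injected into the tail vein at 15 mg/kg, and 30 min later the mice received either PBS or hWJ-MSCs, mesenchymal stromal cells from the Wharton's jelly of the human umbilical cord, by vein. The labels give 2000000 cells per mouse, and the study's methods give a different number, so the dose is not settled here. Livers were taken at 24 h. Nothing further is stated in the labels about how the control mice were treated. The infused cells are human and the table lists mouse genes, and whether reads of the infused cells were counted under mouse genes was not tested.

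Con A is a plant lectin that activates T cells, and in mice it causes a rapid hepatitis in which interferon gamma and tumour necrosis factor act on hepatocytes. In the injured liver, NF-kB drives chemokine and feedback genes, interferons drive antiviral effector genes, immediate early factors such as those of the AP-1 family rise with stress, and the genes of hepatocyte metabolism fall. Mesenchymal stromal cells are multipotent cells of connective tissue that are known for dampening T cell responses.

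The deposited values are whole numbers that the authors had already normalized between mice, and they behave as positions in a shared ranking. Each of the 2251 distinct values of at least 300 was held by the same number of genes in every one of the 12 mice, and 10 genes in each mouse shared the largest value, 341028. Totals lay between 17649654 and 17657159, so they do not give sequencing depth, which is unknown. A gene in such a table can take a higher value only as another takes a lower one, and the sizes of change among the most abundant genes are limited by the few steps there. Alb, albumin, stood at the largest value in all 12 mice, a check of the labelled tissue. On principal components of the log2 values, the first axis held 64.8% and the second 13.5% of the variance, and Con A + PBS mouse 4 stood apart from its group on the second axis, at -55.2 against -15.0 to 7.57 for the other 3.

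With hWJ-MSCs, 474 genes rose and 495 fell against Con A + PBS, 4.20% and 4.38% of the 11289 genes tested. Calls were made with limma on log2(value + 1), a scale on which changes of low genes are understated, and needed an adjusted p (Benjamini-Hochberg, over all genes) below 0.05 together with a fold change above 1.5. Among the called genes 163 rose and 190 fell by more than 2-fold, and the median log2 fold change was 0.84 for the genes that rose and -0.89 for those that fell. All 4 values with hWJ-MSCs lay above all 4 Con A + PBS values for 1349 genes, 11.9% of the genes tested, and below them for 1305 genes, 11.6%, and 375 of the genes called higher and 419 of those called lower were among these. Over the same genes, Con A + PBS against control gave 2206 genes higher, 19.5%, and 2173 lower, 19.2%.

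Most calls lay close to the threshold. The adjusted p was above 0.02 for 425 of the genes that rose and for 426 of those that fell, and the smallest was 0.00882 in both directions. Without Con A + PBS mouse 1 only 5 genes were called higher and 2 lower, without Con A + hWJ-MSCs mouse 2 the counts were 8 and 10, and without Con A + hWJ-MSCs mouse 3 they were 4 and 3. Without Con A + PBS mouse 4 they were 136 and 149, without Con A + PBS mouse 3 252 and 311, without Con A + hWJ-MSCs mouse 1 199 and 307, and without Con A + PBS mouse 2 they reached 846 and 729. The direction of all 969 called genes was the same in each of these fits, which genes chosen by their call with all mice were nearly bound to show. Between 596 and 961 of them kept a fold change above 1.5 with an adjusted p below 0.1 when 1 mouse of the compared groups was left out. Of the 97 called genes that were picked for naming by a fixed rule of size or list, 3 were still called without Con A + PBS mouse 1, 8 without Con A + hWJ-MSCs mouse 2, 4 without Con A + hWJ-MSCs mouse 3 and 39 without Con A + PBS mouse 4. A fit of the 8 compared mice alone, without the control mice, called 324 genes higher and 398 lower. The calls below are to be read with these counts, and each list's share against the 4.20% and 4.38% of all genes.

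**Figure D1:**
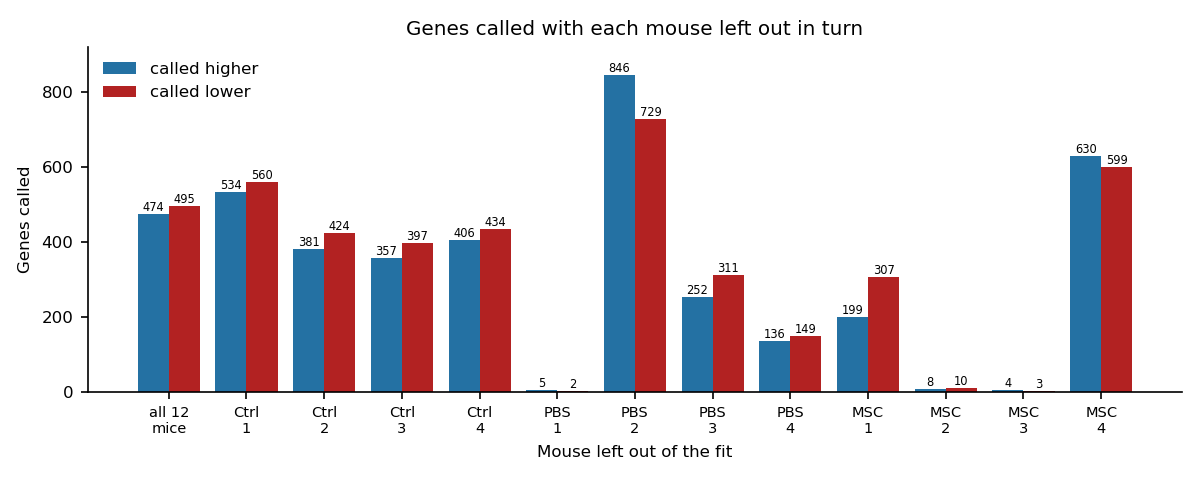
Bars give the number of genes called higher (blue) and lower (red) with hWJ-MSCs than with PBS, for all 12 mice and with each mouse left out in turn on the horizontal axis (Ctrl, control; PBS, Con A + PBS; MSC, Con A + hWJ-MSCs). The counts run from 474 and 495 with all mice to 5 and 2 without Con A + PBS mouse 1, and to 846 and 729 without Con A + PBS mouse 2.

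Only 6 genes were called in all 12 fits that left out 1 mouse, and this set was read from the fits after their values were seen. Tnfaip3, which encodes the ubiquitin-editing inhibitor A20 of NF-kB signaling, was one of the 2 that fell. Its value was 838, 406, 623 and 1026 in Con A + PBS mice 1 to 4 and 171, 109, 132 and 206 in Con A + hWJ-MSCs mice 1 to 4, with 44, 75, 49 and 50 in the control mice (log2 fold change -2.18 ± 0.28 SE, adjusted p = 0.00985). The groups did not overlap, and all 4 mice given cells stayed above the control mice. Prdx4, a peroxiredoxin of the endoplasmic reticulum, rose from 1318, 1353, 1362 and 1132 to 2421, 2503, 3201 and 2584, against 2942, 2380, 2908 and 2269 in the control mice (log2 fold change 1.05 ± 0.13 SE, adjusted p = 0.00882). Klhl17 rose from 58, 68, 67 and 46 to 142, 164, 128 and 114 (log2 fold change 1.19 ± 0.16 SE, adjusted p = 0.00985). Hyi, a hydroxypyruvate isomerase homolog, rose from 322, 308, 280 and 293 to 512, 544, 502 and 526 (log2 fold change 0.79 ± 0.11 SE, adjusted p = 0.00985), and its call was lost when values were centred by transcript length. The remaining 2, Hpx and Trf, are a pair that changed places in the ranking. Hpx, the haem-binding plasma protein hemopexin, stood at 147377 in all 4 Con A + PBS mice and at 341028 in all 4 mice given cells. Trf, transferrin, stood at 341028 in all 8 control and Con A + PBS mice and at 147377 in all 4 mice given cells. Since 147377 was held by 1 gene in every mouse, the 2 changes are a single exchange of 2 top steps, and neither gives a measured size of change.

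**Figure D2:**
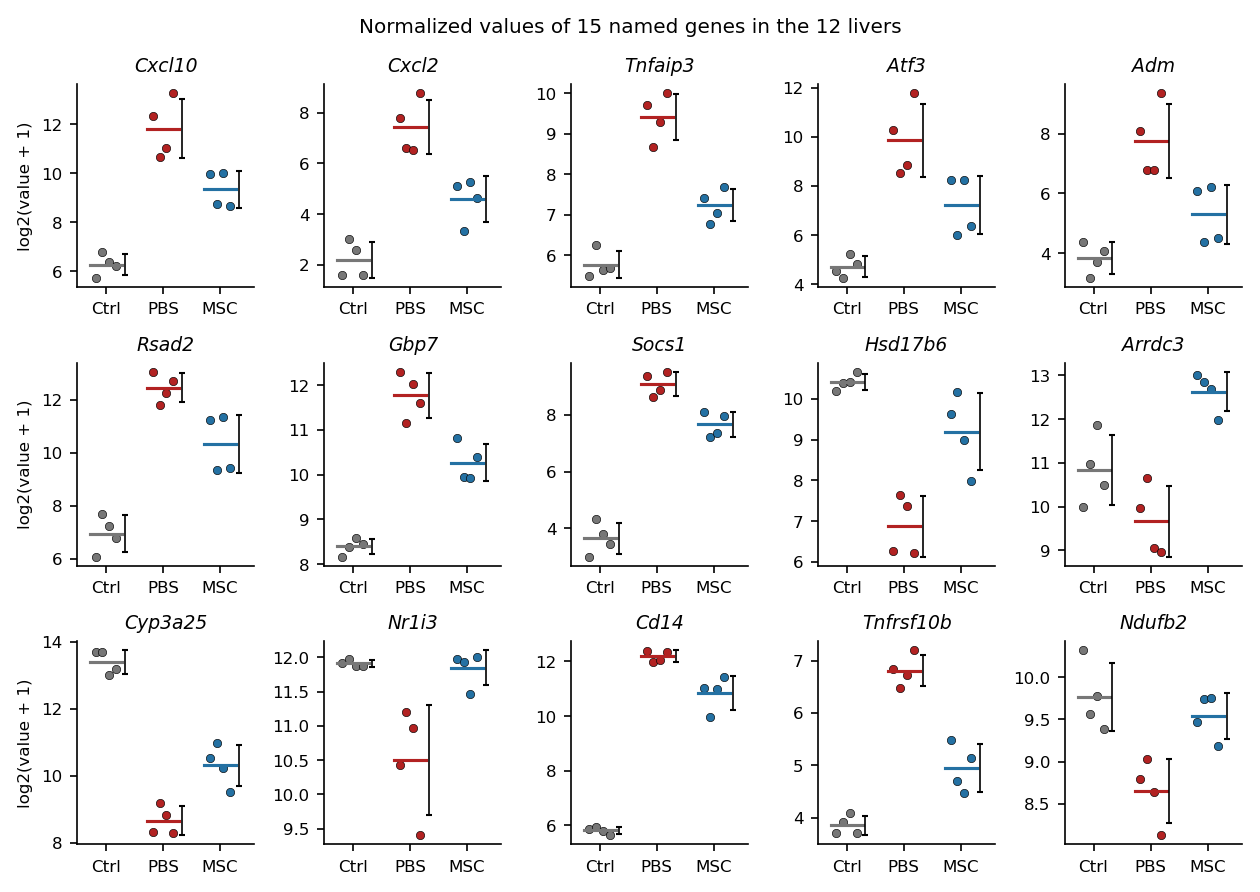
Each panel plots log2(value + 1) of 1 gene on its own vertical scale in the 4 control (Ctrl), 4 Con A + PBS (PBS) and 4 Con A + hWJ-MSCs (MSC) mice as points, with the group mean as a line and the SD on the log2 scale as a bar at its right. In the panels of Cxcl10, Cxcl2, Tnfaip3, Atf3, Adm, Rsad2, Gbp7, Socs1, Cd14 and Tnfrsf10b the 4 mice given cells lie below the 4 Con A + PBS mice, and in those of Hsd17b6, Arrdc3, Cyp3a25, Nr1i3 and Ndufb2 they lie above them.

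The promoters of 4 immune genes that fell are shown so that letters of the kind bound by NF-kB, AP-1 and interferon-activated factors can be seen beside the values. These 4 genes were picked by name and not by a rule, so their matches do not describe the other genes that fell. They are RefSeq windows of 300 bases on GRCm38.p6, from 250 bases before to 50 after the start, printed 5′ to 3′ on the gene's own strand. Capitals mark GGANNTTCC (kappa B type), TGANTCA (AP-1 type) and GAAANNGAA (interferon response type) on either strand.
Cxcl10, chr5:92348840-92349139, minus strand: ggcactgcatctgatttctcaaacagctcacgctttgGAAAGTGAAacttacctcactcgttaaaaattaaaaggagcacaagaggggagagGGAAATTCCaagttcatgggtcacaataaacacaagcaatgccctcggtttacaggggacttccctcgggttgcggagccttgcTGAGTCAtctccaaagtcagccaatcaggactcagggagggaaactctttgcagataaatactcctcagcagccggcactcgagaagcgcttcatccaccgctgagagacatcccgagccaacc
Cxcl2, chr5:90903649-90903948, plus strand: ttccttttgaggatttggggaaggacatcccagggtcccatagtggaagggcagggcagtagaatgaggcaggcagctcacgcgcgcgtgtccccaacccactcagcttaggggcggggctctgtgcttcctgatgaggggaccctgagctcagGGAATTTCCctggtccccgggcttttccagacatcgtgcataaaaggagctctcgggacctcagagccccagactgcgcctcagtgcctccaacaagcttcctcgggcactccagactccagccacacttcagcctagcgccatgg
Tnfaip3, chr10:19015361-19015660, minus strand: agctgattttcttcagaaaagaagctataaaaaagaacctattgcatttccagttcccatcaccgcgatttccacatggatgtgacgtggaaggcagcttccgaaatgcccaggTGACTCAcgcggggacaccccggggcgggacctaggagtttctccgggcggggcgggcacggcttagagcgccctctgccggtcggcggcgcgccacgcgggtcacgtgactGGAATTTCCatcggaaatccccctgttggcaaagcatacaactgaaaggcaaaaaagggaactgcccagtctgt
Socs1, chr16:10785487-10785786, minus strand: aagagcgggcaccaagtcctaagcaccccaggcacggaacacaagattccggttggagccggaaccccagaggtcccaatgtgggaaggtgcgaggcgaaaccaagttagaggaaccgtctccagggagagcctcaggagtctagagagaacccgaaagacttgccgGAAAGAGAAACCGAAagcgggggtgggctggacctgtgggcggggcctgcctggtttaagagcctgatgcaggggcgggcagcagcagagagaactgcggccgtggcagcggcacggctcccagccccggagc
A kappa B type match ends 150 bases before the start in Cxcl10, 88 in Cxcl2 and 16 in Tnfaip3. The Cxcl10 window also holds an interferon response type match that ends 205 bases before the start and an AP-1 type match, and that of Socs1 holds 2 overlapping interferon response type matches. Among the 8150 genes with a RefSeq window within 10000 bases of the table's start site, 4.65% held the kappa B type, 5.18% the AP-1 type and 7.36% the interferon response type. Windows were found for 73.2% of the genes that rose and 68.7% of those that fell, under the 80% that a comparison of shares would need, so none is given. A match describes the letters and not a bound site.

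Chemokines are the signals that draw leukocytes into the liver. Of 33 listed chemokine genes 14 are in the table, of which 4 fell and none rose, with a median log2 fold change of -0.30 against 0.00024 for all genes. Cxcl10, an interferon-induced ligand of CXCR3 on T cells (chr5:92346638-92348882), was 5134, 1626, 2078 and 9858 in Con A + PBS mice 1 to 4 and 1010, 425, 1022 and 408 with cells (log2 fold change -2.47 ± 0.52 SE, adjusted p = 0.0224). Its values in the control mice were 52, 110, 82 and 74, so every mouse given cells stayed above them. Cxcl9, of the same receptor, fell (log2 fold change -1.99). Cxcl2, which draws neutrophils (chr5:90903899-90905909), was 223, 96, 92 and 436 with PBS and 34, 9, 38 and 24 with cells (log2 fold change -2.83 ± 0.59 SE, adjusted p = 0.0225), without overlap. Ccl2, which draws monocytes, fell as well (log2 fold change -1.84). The other 10 listed chemokines in the table did not pass the test. Con A + PBS mouse 4 had the highest value of both Cxcl10 and Cxcl2, and without it 1 chemokine was called lower and the list median was -0.31. The median lay between -0.42 and -0.14 without any 1 mouse.

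NF-kB is held inactive by inhibitors that it induces itself. Of 32 subunits, inhibitors and feedback genes 6 fell, none rose, and all 32 had a negative log2 fold change, with a median of -0.30 (between -0.34 and -0.23 when any 1 mouse was left out). Beside Tnfaip3, whose values are given above, the subunit gene Relb (chr7:19606217-19629438) was 240, 150, 182 and 188 with PBS and 135, 73, 84 and 90 with cells (log2 fold change -1.004 ± 0.21 SE, adjusted p = 0.0224). The inhibitor gene Nfkbia, the subunit gene Nfkb2, the tumour necrosis factor receptor gene Tnfrsf1b and Birc3, a ubiquitin ligase of that receptor's complex, also fell, with log2 fold changes of -0.99, -0.83, -0.79 and -0.67 in that order. Nos2, the inducible nitric oxide synthase (chr11:78920787-78960254), was 441, 211, 198 and 550 with PBS and 92, 22, 76 and 46 with cells (log2 fold change -2.59 ± 0.67 SE, adjusted p = 0.0324), and it was at or near 0 in the control mice, with 0, 0, 6 and 0. Cd14, a co-receptor for lipopolysaccharide counted with the acute phase genes, fell from 5380, 4032, 4184 and 5242 to 2075, 1009, 2021 and 2784 (log2 fold change -1.33 ± 0.24 SE, adjusted p = 0.0188). Serpina3f, a serine protease inhibitor gene with near-identical neighbours (chr12:104214544-104221123), was 3445, 872, 1724 and 3801 with PBS and 554, 280, 448 and 398 with cells (log2 fold change -2.37 ± 0.51 SE, adjusted p = 0.0241). Among the 36 acute phase genes these 2 and Il1rn (log2 fold change -1.20) fell and Hpx rose, with a median of 0, and several of the most abundant members sat at shared top values.

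A list of 33 genes held the interleukin-1 and interleukin-6 families, receptors and feedback genes. It also takes in receptor genes of other cytokines, such as Il22ra1 and Csf2rb. Of the 33 genes 5 fell and 2 rose (median -0.28), and without Con A + PBS mouse 4 the counts were 3 and 0. Socs1, the feedback inhibitor of cytokine receptor kinases (chr16:10783808-10785536), was 669, 396, 471 and 735 with PBS and 272, 149, 165 and 249 with cells (log2 fold change -1.44 ± 0.30 SE, adjusted p = 0.0224). Lif, a cytokine of the interleukin-6 family, fell from 68, 54, 42 and 84 to 16, 6, 10 and 18 (log2 fold change -2.28 ± 0.69 SE, adjusted p = 0.0476), and its call was lost when values were centred by transcript length. The receptor gene Il22ra1, the interleukin-1 receptor antagonist gene Il1rn and Csf2rb fell as well, with log2 fold changes of -1.34, -1.20 and -0.91 in that order, whereas Il1rap, the accessory chain of the interleukin-1 receptor (log2 fold change 1.05), and Il18 (log2 fold change 0.90) rose.

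Interferons induce effectors that limit viral replication and cell growth. Of 55 interferon-stimulated effectors 16 fell, 29.1% against 4.38% of all genes, and none rose, with a median of -0.54 (between -0.63 and -0.42 without any 1 mouse), and 15 lay below the Con A + PBS values in all 4 mice, which held for 11.6% of all genes. The number called was 9 without Con A + PBS mouse 4. Rsad2, the antiviral protein viperin (chr12:26442753-26456431), was 8498, 3522, 4910 and 6720 with PBS and 2387, 646, 2630 and 681 with cells (log2 fold change -2.12 ± 0.49 SE, adjusted p = 0.0264). With cells, mice 2 and 4 were the lower pair, and both remained above the highest control value, as the control mice had 67, 207, 152 and 110. Cmpk2, a nucleotide kinase next to Rsad2 in the genome (chr12:26469204-26479835), was 2429, 1195, 1556 and 2188 with PBS and 778, 423, 974 and 426 with cells (log2 fold change -1.54 ± 0.34 SE, adjusted p = 0.0248). Further members that fell were Herc6, the kinase gene Eif2ak2 (PKR), Ifit1, the ubiquitin-like Isg15 and the nucleic acid sensor gene Zbp1, with log2 fold changes of -1.22, -0.98, -0.98, -0.87 and -0.76 in that order.

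Guanylate-binding proteins and immunity-related GTPases, which act on vacuoles of intracellular pathogens, are induced chiefly by interferon gamma. Of 16 members 5 fell and none rose (median -0.57). Gbp7 (chr3:142530338-142550083) was 5040, 2266, 4195 and 3126 with PBS and 1794, 985, 976 and 1352 with cells (log2 fold change -1.50 ± 0.24 SE, adjusted p = 0.0174), and the groups did not overlap. Gbp2 (chr3:142620602-142638008) had overlapping groups, with 12219, 7132, 12219 and 10956 against 9867, 3862, 4562 and 2580 (log2 fold change -1.18 ± 0.35 SE, adjusted p = 0.0468), and its mice given cells kept values well above the 105, 191, 169 and 205 of the control mice. In MHC class I presentation and the immunoproteasome 1 of 23 genes was called, 4.35% against 4.38% of all genes. It was H2-Q4, with 3970, 2934, 3798 and 4184 against 3224, 2415, 2494 and 1825 (log2 fold change -0.60 ± 0.17 SE, adjusted p = 0.0451). Of 8 listed MHC class II genes in the table none was called, and Cd74, the invariant chain, was 1108, 1498, 842 and 1569 with PBS and 1391, 1875, 1382 and 722 with cells (log2 fold change 0.06 ± 0.29 SE, adjusted p = 0.904). Gbp, H2 and Ifit genes have near-identical copies, among which reads may have been split.

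Immediate early genes are transcribed within minutes of a stress or growth signal, and many encode AP-1 and related transcription factors. Of the 29 measured, 16 fell and none rose, 55.2% against 4.38% of all genes, and the median of -1.18 was the lowest of the 39 pathway lists. The median lay between -1.44 and -0.91 without any 1 mouse and was -1.26 when values were centred by transcript length, with 16 genes called. Without Con A + PBS mouse 4 the number of genes called was 7. Klf4, a zinc finger factor (chr4:55530712-55532453), was 90, 32, 50 and 202 with PBS and 8, 1, 6 and 12 with cells, close to the 4, 9, 2 and 2 of the control mice (log2 fold change -3.55 ± 0.79 SE, adjusted p = 0.025). Atf3, a stress-induced factor (chr1:191170296-191183340), was 1240, 372, 458 and 3488 with PBS and 300, 64, 302 and 82 with cells (log2 fold change -2.64 ± 0.68 SE, adjusted p = 0.0321). Con A + PBS mouse 4 was highest of its group for both genes, and no mouse given cells reached the lowest Con A + PBS value. Ier3, Maff, Myc and Klf6 also fell, with log2 fold changes of -2.43, -2.31, -2.25 and -1.75 in that order, as did the MAP kinase phosphatase genes Dusp5 and Dusp1 and the AP-1 subunit genes Jun and Junb, with log2 fold changes of -1.78, -1.68, -1.28 and -1.19 in that order. Sprr1a, a small proline-rich protein of stressed epithelia (chr3:92483952-92485895), was also highest in Con A + PBS mouse 4 and without overlap, with 526, 201, 164 and 1581 against 73, 7, 39 and 24 (log2 fold change -3.88 ± 0.80 SE, adjusted p = 0.0224).

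The list of p53 targets and growth arrest genes shares Btg2 with the immediate early genes and Sesn2 with the stress genes below. Of its 28 genes 7 fell and 1, Perp, rose (log2 fold change 0.59), with a median of -0.61. Only 1 was called lower without Con A + PBS mouse 4. Tnfrsf10b, the mouse death receptor for TRAIL (chr14:69767472-69784403), was 114, 88, 105 and 146 with PBS and 44, 25, 21 and 34 with cells (log2 fold change -1.87 ± 0.28 SE, adjusted p = 0.0149). Gadd45b (chr10:80930091-80932204) was 425, 160, 200 and 917 with PBS and 147, 78, 148 and 112 with cells (log2 fold change -1.50 ± 0.46 SE, adjusted p = 0.0489), so that Con A + PBS mouse 2 came nearest to the mice given cells. Among cell death and inflammasome genes 4 of 29 fell (1 without Con A + PBS mouse 4) and 1, Casp6, rose (log2 fold change 0.62, not called without that mouse or after length centring). Those that fell were Tnfrsf10b, the apoptosome gene Apaf1 (272, 145, 182 and 297 against 112, 93, 106 and 104, log2 fold change -1.05 ± 0.23 SE, adjusted p = 0.0252), the necroptosis effector Mlkl and Bcl2l1, which encodes an inhibitor of apoptosis (with log2 fold changes of -0.74 and -0.83 in that order).

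In the ER stress and integrated stress response 5 of 35 genes fell (median -0.39, between -0.45 and -0.23 without any 1 mouse, and 1 call without Con A + PBS mouse 4), among them Atf3 and Vldlr, the VLDL receptor, with 175, 62, 88 and 462 against 40, 25, 39 and 64 (log2 fold change -1.84 ± 0.56 SE, adjusted p = 0.0484). The phosphatase subunit gene Ppp1r15a, Sesn2 and the amino acid transporter gene Slc3a2 were the other 3, with log2 fold changes of -1.33, -0.82 and -0.71 in that order. Of 31 heat shock chaperone genes 2 fell, 6.45% and so near the 4.38% of all genes (median -0.18, between -0.32 and -0.14 without any 1 mouse). Hspa8, the constitutive cytosolic Hsp70 (chr9:40800984-40805200), was 23652, 29712, 25838 and 25838 with PBS and 16364, 13961, 13961 and 15125 with cells (log2 fold change -0.82 ± 0.14 SE, adjusted p = 0.0174), within the range of the control mice, 13961, 13961, 18948 and 16364. Bag3, its co-chaperone, was 1095, 1022, 998 and 1116 with PBS and 758, 568, 753 and 722 with cells (log2 fold change -0.60 ± 0.14 SE, adjusted p = 0.0267). Ribosome biogenesis factors included 5 genes that fell among 51, and 48 had a negative sign (median -0.33). None was called without Con A + PBS mouse 4, where the median was -0.24. Mybbp1a was 2010, 1680, 1760 and 3442 against 1328, 1017, 1171 and 1408 (log2 fold change -0.80 ± 0.20 SE, adjusted p = 0.0317) and Tsr1 618, 446, 498 and 1000 against 357, 292, 394 and 418 (log2 fold change -0.75 ± 0.21 SE, adjusted p = 0.0396). Of 26 genes of the NRF2 and antioxidant response, Srxn1, sulfiredoxin, fell from 1935, 1436, 1356 and 3798 to 1152, 682, 992 and 768 (log2 fold change -1.14 ± 0.28 SE, adjusted p = 0.0282), while Sod1, superoxide dismutase (log2 fold change 0.76), and Gclm, a subunit of glutathione synthesis (log2 fold change 0.68), rose. That is 3.85% lower and 7.69% higher, against 4.38% and 4.20% of all genes, with 13 genes of each sign. No proteasome gene of 35 was called, and Psmd2 was 4310, 3826, 4310 and 4766 with PBS and 3212, 2804, 3826 and 3287 with cells (log2 fold change -0.40 ± 0.13 SE, adjusted p = 0.0637).

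Hypoxia-inducible factors switch on glycolysis, vascular and matrix genes. Of 27 targets 9 fell (5 without Con A + PBS mouse 4) and none rose (median -0.58, between -0.69 and -0.54 without any 1 mouse), and Hif1a itself was one of them (log2 fold change -1.59). Adm, the vasodilator adrenomedullin (chr7:110627661-110629820), was 270, 108, 108 and 651 with PBS and 66, 20, 74 and 22 with cells (log2 fold change -2.44 ± 0.59 SE, adjusted p = 0.028). In the control mice Adm was 20, 8, 12 and 16, and the values with cells came close to these in mice 2 and 4. Of 28 genes of glycolysis and lactate export 8 fell and 3 rose, and without Con A + PBS mouse 4 the counts were 4 and 2. The 8 were Slc16a3, a lactate exporter, with 450, 352, 340 and 476 against 214, 68, 165 and 106 (log2 fold change -1.65 ± 0.30 SE, adjusted p = 0.0188), the glucose transporter gene Slc2a1, Pfkfb3, Pfkp, Pkm, Hk1, Pfkl and Aldoa, with log2 fold changes of -1.51, -1.44, -1.41, -0.98, -0.95, -0.85 and -0.75 in that order. Among those that rose, Slc2a2 (log2 fold change 1.55) and Pfkfb1 (log2 fold change 0.83) are the forms of glucose transporter and regulatory kinase that hepatocytes use.

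Igfbp1, a binding protein of insulin-like growth factors that insulin represses (chr11:7197782-7202546), was 13937, 4374, 13212 and 29668 with PBS and 3265, 720, 1417 and 3859 with cells (log2 fold change -2.71 ± 0.70 SE, adjusted p = 0.0327). Its values with cells did not overlap those with PBS. Pdk4, a kinase that shuts off pyruvate oxidation in fasting (chr6:5483351-5496309), was 1336, 667, 1939 and 10968 with PBS and 344, 198, 266 and 628 with cells (log2 fold change -2.67 ± 0.66 SE, adjusted p = 0.0296); Con A + PBS mouse 4 stood far above the rest of its group. Irs2, the insulin receptor substrate (chr8:10986980-11008458), was 360, 348, 527 and 795 with PBS and 98, 146, 57 and 272 with cells (log2 fold change -1.96 ± 0.50 SE, adjusted p = 0.0316). Arrdc3, an arrestin-domain adaptor (chr13:80883384-80889643), was 1000, 1609, 531 and 496 with PBS and 8246, 7354, 6544 and 4043 with cells, above the 1012, 1992, 3750 and 1444 of the control mice (log2 fold change 2.97 ± 0.43 SE, adjusted p = 0.0149). In the growth hormone and IGF list Igfbp1 and Irs2 were the 2 genes called among 19.

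Of 36 genes of fatty acid oxidation and ketogenesis 3 rose, Acadm, Etfa (log2 fold change 0.61) and Etfb (log2 fold change 0.63), and 3 fell, Pdk4, Ehhadh (log2 fold change -1.05) and Acot2, which was 258, 292, 450 and 522 with PBS and 196, 128, 100 and 288 with cells (log2 fold change -1.15 ± 0.31 SE, adjusted p = 0.0372). Without Con A + PBS mouse 4 the counts were 0 higher and 1 lower, and after length centring 0 and 3. In gluconeogenesis Slc37a4, the glucose-6-phosphate transporter, rose from 1054, 1327, 1320 and 800 to 1746, 1865, 1680 and 1824 (log2 fold change 0.69 ± 0.20 SE, adjusted p = 0.0465), Mdh1 rose (log2 fold change 0.66) and Pcx, pyruvate carboxylase, fell (log2 fold change -0.64), among 16 genes. None of the 16 was called without Con A + PBS mouse 4 or after length centring. Of 24 genes of fatty acid and triglyceride synthesis 1 was called, and 17 had a negative sign (median -0.35, between -0.44 and -0.21 without any 1 mouse). None of 25 genes of cholesterol synthesis and uptake was called by limma, although 22 had a negative sign (median -0.33), and Hmgcs1 was 13948, 12219, 7616 and 29687 with PBS and 11601, 13230, 12219 and 9867 with cells (log2 fold change -0.27 ± 0.35 SE, adjusted p = 0.618).

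**Figure D3:**
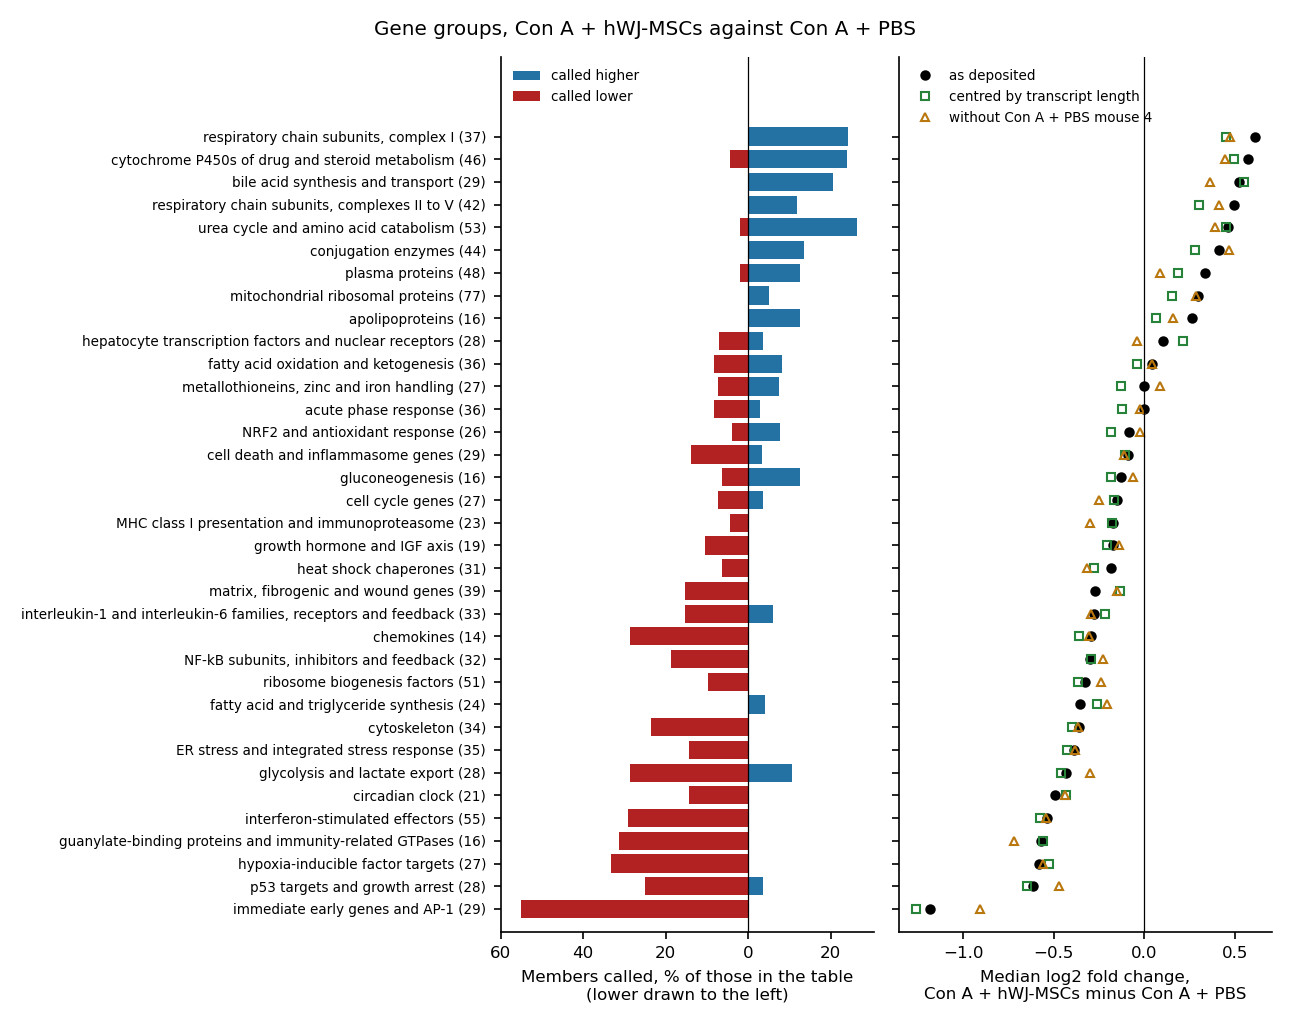
The left panel gives, for each pathway list with a called gene, the percent of its members in the table (number in brackets) called higher (blue, right) and lower (red, left) with hWJ-MSCs than with PBS. The right panel gives the list's median log2 fold change as deposited (black), after centring by transcript length (green) and without Con A + PBS mouse 4 (orange). Immediate early genes lie lowest, at -1.18, and complex I subunits highest, at 0.61.

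Most called genes of hepatocyte metabolism were higher with cells. Among 53 genes of the urea cycle and amino acid catabolism 14 rose, 26.4% against 4.20% of all genes, and 1 fell (median 0.46). In 14 the 4 mice given cells lay above every Con A + PBS mouse, which held for 11.9% of all genes. Centring by transcript length gave 6 genes called higher, and leaving out Con A + PBS mouse 4 gave 3. Otc, the urea cycle enzyme ornithine transcarbamylase, Kynu of tryptophan breakdown, Agxt of glyoxylate detoxification, Prodh of proline oxidation and Haao of tryptophan breakdown rose, with log2 fold changes of 1.68, 1.17, 1.14, 1.06 and 0.85 in that order. Bhmt, which remethylates homocysteine (chr13:93616891-93637961), was 13327, 44970, 29795 and 3467 with PBS and 341028, 341028, 341028 and 58393 with cells (log2 fold change 3.80 ± 0.82 SE, adjusted p = 0.0243), and 3 of its 4 values with cells were the largest value of the table. Mat1a, which makes S-adenosylmethionine (chr14:41105381-41124412), was called lower, with 341028, 148316, 341028 and 341028 against 72892, 58393, 34530 and 148316 (log2 fold change -2.02 ± 0.44 SE, adjusted p = 0.0245). The 4 values of Bhmt with cells and the 4 of Mat1a with PBS lay on widely spaced top steps, 341028, 148316 and 58393, so the size of either change depends in part on those steps. Bhmt2, a close relative of Bhmt, rose (log2 fold change 1.02). Dpys, a pyrimidine-degrading enzyme (chr15:39768485-39857467), was 383, 1149, 668 and 202 with PBS and 1639, 3522, 2229 and 1308 with cells (log2 fold change 2.03 ± 0.44 SE, adjusted p = 0.0245), below all control values, 4354, 3627, 5362 and 4910.

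Cytochrome P450 enzymes oxidise drugs and steroids. Of the 46 measured, 11 rose and 2 fell, 23.9% and 4.35%, with a median of 0.57. After length centring 7 were called higher and 3 lower, and without Con A + PBS mouse 4 the counts were 4 and 0. Cyp3a25 (chr5:145977196-146009617) was 322, 582, 458 and 310 with PBS and 1488, 2004, 1210 and 726 with cells (log2 fold change 1.65 ± 0.30 SE, adjusted p = 0.0188), against 13247, 13247, 8246 and 9424 in the control mice. The groups did not overlap, and the mice given cells stayed below every control mouse. Cyp2b13, Cyp2c68, Cyp2b9 and Cyp2c70 also rose, with log2 fold changes of 1.51, 1.48, 1.34 and 0.71 in that order. Cyp2c69 fell from 5256, 2556, 3091 and 8544 to 1639, 884, 478 and 580 (log2 fold change -2.45 ± 0.55 SE, adjusted p = 0.0253), and since it is a near-identical neighbour of Cyp2c68 the opposite changes of the 2 are uncertain. Nr1i3, the nuclear receptor CAR that controls many of these enzymes (chr1:171213970-171218845), was 1382, 2343, 2004 and 676 with PBS and 4044, 3922, 2830 and 4113 with cells (log2 fold change 1.35 ± 0.30 SE, adjusted p = 0.0252), within the range of the 3866, 4044, 3751 and 3751 of the control mice in all but mouse 3 and just above it in mouse 4. Among 28 hepatocyte transcription factors it was the only one to rise, and Cebpb (1814, 1332, 1723 and 2414 against 767, 374, 987 and 1176, log2 fold change -1.23 ± 0.34 SE, adjusted p = 0.0375) and Onecut1 (log2 fold change -0.998) fell. These are 3.57% and 7.14% of the list, near the 4.20% and 4.38% of all genes, and 14 genes had each sign. Of 44 conjugation enzymes 6 rose and none fell (median 0.41), with 3 called after length centring and 1 without Con A + PBS mouse 4, led by Ugt2b36 (1310, 3596, 1609 and 1304 against 5925, 10972, 6329 and 2224, log2 fold change 1.63 ± 0.42 SE, adjusted p = 0.0321) and Ugt1a6a (401, 628, 379 and 342 against 894, 1240, 797 and 568, log2 fold change 0.98 ± 0.24 SE, adjusted p = 0.027). Genes of the Cyp2b, Cyp2c, Cyp3a and Ugt families share sequence, and values of single members are uncertain to that degree.

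Bile acids are made from cholesterol in hepatocytes and taken back up from the blood. Of 29 genes of their synthesis and transport 6 rose and none fell (median 0.52), against 4 after length centring and 1 without Con A + PBS mouse 4. Akr1d1, the bile acid 5-beta-reductase (chr6:37530173-37568815), was 80, 226, 100 and 96 with PBS and 552, 1566, 664 and 226 with cells (log2 fold change 2.38 ± 0.47 SE, adjusted p = 0.0203), where mouse 4 given cells equalled the highest Con A + PBS mouse. The control mice had 5138, 4285, 3862 and 4108, so the values with cells stayed well below them. Akr1c6 was 452, 1698, 468 and 603 with PBS and 3050, 13961, 6952 and 726 with cells (log2 fold change 2.49 ± 0.71 SE, adjusted p = 0.0421), also with overlap. Slc10a1, the uptake transporter NTCP, the FGF receptor pair Klb and Fgfr4 that restrains bile acid synthesis, and the enzyme gene Hsd3b7 rose, with log2 fold changes of 1.53, 1.25, 0.80 and 0.83 in that order. Hsd17b6, a hydroxysteroid dehydrogenase (chr10:127990941-128000678), was 76, 200, 164 and 73 with PBS and 790, 1155, 506 and 252 with cells (log2 fold change 2.32 ± 0.43 SE, adjusted p = 0.0188). In Akr1d1, Akr1c6 and Hsd17b6 alike, mouse 2 had the highest and mouse 4 the lowest value with cells, and mouse 2 had the highest value with PBS.

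Of 48 plasma protein genes 6 rose and 1, Trf, fell (median 0.34, and 0.085 with 1 gene called higher without Con A + PBS mouse 4). After length centring the median was 0.185, with 6 called higher and 1 lower. Klkb1, plasma prekallikrein (chr8:45269442-45294859), was 242, 678, 306 and 110 with PBS and 881, 1978, 1000 and 500 with cells (log2 fold change 1.82 ± 0.48 SE, adjusted p = 0.0334). F13b, the carrier subunit of coagulation factor XIII (chr1:139501707-139523756), was 1004, 2318, 1291 and 650 with PBS and 3322, 4386, 3232 and 2106 with cells (log2 fold change 1.42 ± 0.33 SE, adjusted p = 0.0255). In both, mouse 4 given cells fell below the highest Con A + PBS mouse, mouse 2. The coagulation genes F10, Proc and F9 also rose, with log2 fold changes of 0.93, 0.78 and 0.61 in that order. Among 16 apolipoprotein genes Apoc4 (2344, 3050, 2617 and 1909 against 6164, 6952, 5925 and 4840, log2 fold change 1.28 ± 0.21 SE, adjusted p = 0.0174) and Apoc1 (13195, 12202, 13926 and 10336 against 20852, 23572, 20852 and 23572, log2 fold change 0.84 ± 0.26 SE, adjusted p = 0.0499) rose. In the list of zinc and iron handling, the zinc importer genes Slc39a10 (396, 234, 311 and 654 against 123, 90, 118 and 204, log2 fold change -1.53 ± 0.29 SE, adjusted p = 0.0198) and Slc39a14 (log2 fold change -0.84) fell, and Hfe2, hemojuvelin of the hepcidin pathway, rose from 658, 1257, 842 and 188 to 1502, 1838, 1692 and 1402 (log2 fold change 1.41 ± 0.42 SE, adjusted p = 0.0468).

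Complex I of the respiratory chain takes electrons from NADH. All 37 of its subunit genes had a positive log2 fold change, 9 were called higher, and in 31 the 4 mice given cells lay above all 4 Con A + PBS mice, against 11.9% of all genes. The median was 0.61, and between 0.47 and 0.69 without any 1 mouse. Ndufb2 was 444, 520, 398 and 279 with PBS and 706, 856, 862 and 580 with cells (log2 fold change 0.89 ± 0.23 SE, adjusted p = 0.0316), and Ndufb4 was 681, 808, 670 and 450 with PBS and 1108, 1336, 1254 and 983 with cells (log2 fold change 0.86 ± 0.23 SE, adjusted p = 0.0358). Complexes II to V had 5 genes called higher among 42 and none lower (median 0.50), such as Cox6c (2190, 2211, 2030 and 1508 against 3432, 3627, 3388 and 3186, log2 fold change 0.80 ± 0.21 SE, adjusted p = 0.0327) and Uqcrq (4557, 4927, 4374 and 2649 against 6748, 7126, 8231 and 6154, log2 fold change 0.81 ± 0.25 SE, adjusted p = 0.0498). Of 77 mitochondrial ribosomal proteins 4 were called higher, 5.19% against 4.20% of all genes, which is near that background, with a median of 0.30. They include Mrps33 (336, 368, 336 and 229 against 518, 616, 544 and 418, log2 fold change 0.73 ± 0.21 SE, adjusted p = 0.0429) and Mrpl49 (219, 281, 217 and 216 against 390, 406, 428 and 284, log2 fold change 0.68 ± 0.14 SE, adjusted p = 0.0226). In the peroxisome Pxmp2, a membrane channel protein (chr5:110274282-110286186), was 303, 634, 470 and 206 with PBS and 1254, 1635, 1316 and 764 with cells (log2 fold change 1.70 ± 0.33 SE, adjusted p = 0.0198). The median transcript of the 3 mitochondrial lists was 861, 727 and 1197 bases long, against 2755 over all genes, and after centring by transcript length their medians were 0.45, 0.30 and 0.15 with 4, 3 and 0 genes called. The genes called without Con A + PBS mouse 4 were 1, 2 and 1. Only 6 of 81 listed cytosolic ribosomal proteins are in the table, and none was called, with Rpsa at 10972, 9880, 10370 and 12230 and 10972, 9880, 12230 and 9880 (log2 fold change -0.02 ± 0.11 SE, adjusted p = 0.93).

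Transcript length moved with this comparison as a whole. Among the 11168 genes whose transcript was found in GENCODE M21, the median log2 fold change with hWJ-MSCs ran from 0.20 in the shortest 10% of transcripts, of median length 646 bases, to -0.19 in the longest, of 7423 bases. The shortest 10% held 90 genes called higher and 36 lower, and the longest 8 and 98. The transcripts of genes that rose had a median length of 1678 bases, those of genes that fell 3706 and those not called 2773. The median log2 deviation of the shortest 10% minus that of the longest 10% was 0.27, 0.24, 0.44 and 0.091 in the 4 mice given cells, all above the -0.13, -0.017, -0.082 and -0.29 of the Con A + PBS mice, whereas the control mice spread from -0.32 to 0.17. When each mouse was centred within 10 bins of transcript length, an alternative chosen after the data were seen, 317 genes were called higher and 415 lower, and 274 and 341 of these were among the genes called before. Among the genes given here with the value of each mouse compared, Hyi, Eif4ebp3, Bola1, Acadm, Pex2, Med21, Crim1, Myo10, Gpr116, Apoc1, Akr1c6, Slc37a4, Uqcrq, Mrps33, Mrpl49, Vldlr, Hfe2, Lif, Bhlhe40, Gpnmb and Cdh5 were no longer called after this centring. Of those given above by fold change alone, Mdh1 and Sod1 were among the genes that lost the call. The part of transcript length in the calls of single genes was not tested beyond this centring.

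**Figure D4:**
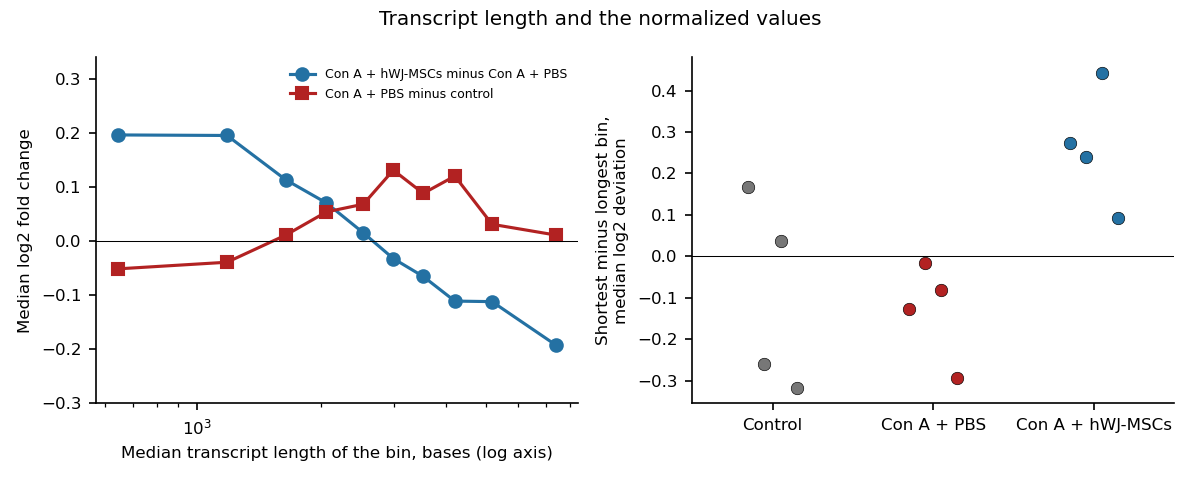
The left panel plots the median log2 fold change of the genes in each of 10 bins of transcript length against the bin's median length in bases (log axis), for Con A + hWJ-MSCs minus Con A + PBS (blue) and Con A + PBS minus control (red). The right panel plots for each mouse the median log2 deviation of the shortest 10% minus that of the longest 10%, and the 4 mice given cells lie between 0.091 and 0.44, above the 4 Con A + PBS mice.

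Some genes moved with the cells although Con A alone had moved them little or not at all. A gene was taken as unmoved by Con A where the 95% confidence interval of Con A + PBS minus control lay within 1.5-fold in either direction, between -0.585 and 0.585 on the log2 scale, which held for 3373 of the 11289 genes (29.9%). A small change with Con A is allowed by this rule, as for Vezf1, whose interval ran from 0.010 to 0.55. Of these, 17 were called higher with hWJ-MSCs and 18 lower, 0.504% and 0.534%, against 4.20% and 4.38% of all genes. Both comparisons use the same Con A + PBS mice, so the 3 groups are given side by side. Their log2 fold changes ran from 0.605 to 0.80 and, leaving aside Trf, from -0.99 to -0.59, and 16 and 17 of them had no overlap with the Con A + PBS mice. Against the control mice themselves, 13 of the 17 and 13 of the 18 were also called in the same direction, in a comparison that shares the mice given cells. As the class was chosen for Con A + PBS values close to control, this follows in large part from the choice. It adds no separate evidence.

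Among the genes higher with cells in this class, Ccdc167 (chr17:29689378-29717009) had the largest change. Its values were 122, 126, 152 and 122 in the control mice, 126, 142, 147 and 108 with PBS and 191, 223, 226 and 275 with cells (log2 fold change 0.80 ± 0.14 SE, adjusted p = 0.0188). Tha1, a threonine aldolase (chr11:117867952-117873459), was 164, 106, 142 and 116 in the control mice, 125, 151, 142 and 119 with PBS and 212, 235, 212 and 239 with cells (log2 fold change 0.74 ± 0.14 SE, adjusted p = 0.0198). Pllp, the membrane protein plasmolipin (chr8:94674895-94696242), was 180, 283, 198 and 241 in the control mice, 218, 287, 254 and 202 with PBS and 370, 370, 435 and 410 with cells (log2 fold change 0.73 ± 0.15 SE, adjusted p = 0.0224). In all 3 genes the mice given cells stood above all 8 other mice. Acadm, the medium-chain acyl-CoA dehydrogenase of mitochondrial beta-oxidation (chr3:153922357-153944632), was 3936, 3506, 4310 and 3881 in the control mice, 3765, 4956, 4860 and 2410 with PBS and 5608, 6182, 5783 and 6976 with cells (log2 fold change 0.67 ± 0.20 SE, adjusted p = 0.0454). Pex2, a peroxisome assembly factor (chr3:5560188-5576150), was 1344, 852, 1231 and 852 in the control mice, 927, 1242, 1098 and 855 with PBS and 1430, 1480, 1992 and 1628 with cells (log2 fold change 0.67 ± 0.18 SE, adjusted p = 0.0362), and Bola1, a mitochondrial iron-sulfur cluster factor (chr3:96196588-96198489), was 500, 250, 392 and 258 in the control mice, 320, 390, 312 and 350 with PBS and 526, 477, 688 and 532 with cells (log2 fold change 0.69 ± 0.20 SE, adjusted p = 0.0467). The remaining 11 were Dph7, Hsd17b13, Atp5s, Coa4, BC003331, Cdk5, Mdp1, Mrpl33, Etfb, Gm28040 and a gene whose symbol a spreadsheet had turned into a date, with log2 fold changes between 0.605 and 0.76. Of these Hsd17b13, a lipid droplet protein of hepatocytes, was 4262, 3960, 4354 and 3846 in the control mice, 3432, 4813, 3730 and 2994 with PBS and 7576, 6720, 6020 and 4723 with cells.

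Genes lower with cells in this class included the transcription factor gene Klf3 (chr5:64803523-64830129), with 286, 408, 330 and 444 in the control mice, 344, 252, 370 and 498 with PBS and 164, 180, 152 and 228 with cells (log2 fold change -0.99 ± 0.20 SE, adjusted p = 0.0224). Irf5, an interferon regulatory factor (chr6:29526625-29537319), was 184, 256, 292 and 325 in the control mice, 286, 222, 228 and 252 with PBS and 182, 162, 159 and 112 with cells (log2 fold change -0.69 ± 0.19 SE, adjusted p = 0.0361). For Klf3 and Irf5 every mouse given cells lay below all 8 other mice, for Irf5 by a narrow gap to the lowest control mouse. Crim1, a transmembrane protein that binds bone morphogenetic proteins (chr17:78200248-78376592), was 188, 226, 161 and 226 in the control mice, 252, 184, 224 and 178 with PBS and 129, 150, 109 and 120 with cells (log2 fold change -0.71 ± 0.15 SE, adjusted p = 0.0245), and Myo10, an unconventional myosin (chr15:25622525-25813673), was 598, 714, 550 and 848 in the control mice, 721, 510, 590 and 735 with PBS and 379, 450, 374 and 366 with cells (log2 fold change -0.69 ± 0.15 SE, adjusted p = 0.0252). In Crim1 and Myo10 no mouse given cells reached the lowest Con A + PBS mouse. Sdc1, the heparan sulfate proteoglycan syndecan-1 of hepatocytes, was 5030, 5380, 5030 and 5242 in the control mice, 5730, 4826, 5380 and 7936 with PBS and 3639, 3639, 3970 and 3970 with cells, and it and Hsd17b13 were chosen for mention after their values were seen. Trf, whose exchange with Hpx is given above, is counted among the 18, but it stood at the largest value in all control and Con A + PBS mice, where a difference between these groups could not show. The class also holds Foxk1, Ncoa2, Crkl, Ptprj, Tanc1, Akap13, Slc6a6, Spata13, Usp12, Vezf1 and 8030462N17Rik, with log2 fold changes between -0.69 and -0.59. Transcripts of the 17 genes had a median length of 1720 bases and those of the 18 a median of 5125, and 5 and 6 of them were still called after centring by transcript length. Of the genes with values here Ccdc167, Tha1, Pllp, Hsd17b13, Klf3, Irf5, Sdc1 and Trf were still called, and Acadm, Pex2, Bola1, Crim1 and Myo10 were not. Without Con A + PBS mouse 1 the counts of this class were 0 and 1, as they were without Con A + hWJ-MSCs mouse 2 and without mouse 3. Without Con A + hWJ-MSCs mouse 4 they were 31 and 34, without mouse 1 6 and 11, without Con A + PBS mouse 4 6 and 7, without Con A + PBS mouse 3 12 and 9, and without control mouse 1 30 and 20.

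**Figure D5:**
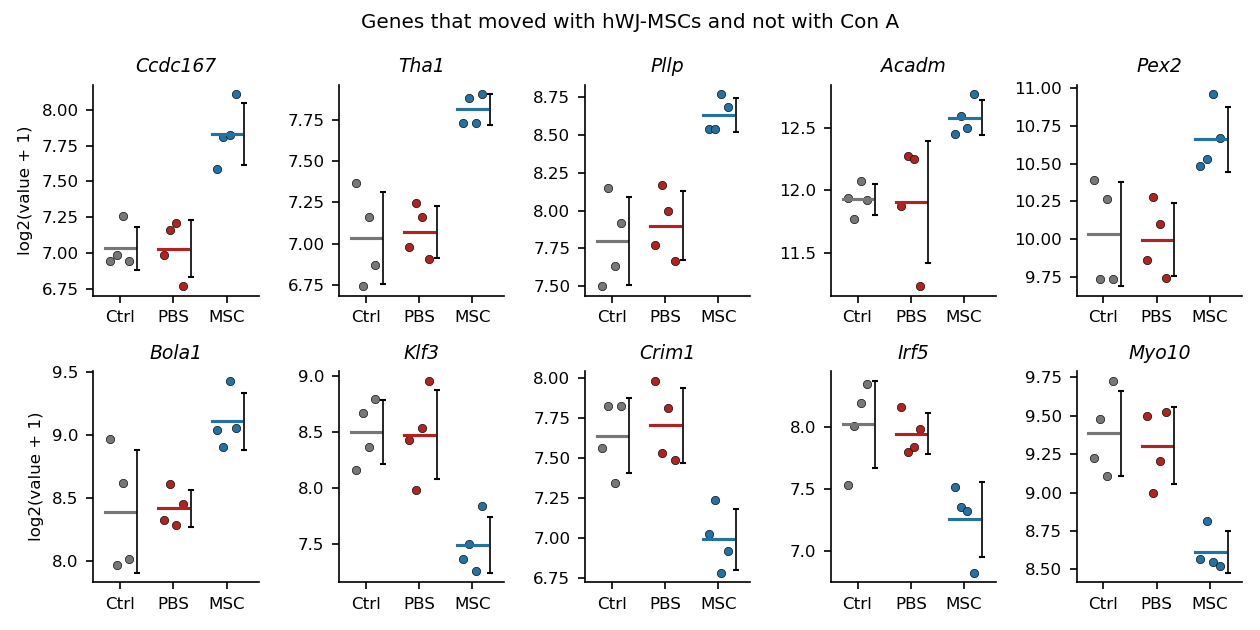
Each panel plots log2(value + 1) of 1 gene on its own vertical scale in the control (Ctrl), Con A + PBS (PBS) and Con A + hWJ-MSCs (MSC) mice, 4 each, with the group mean as a line and the SD on the log2 scale as a bar at its right. In Ccdc167, Tha1, Pllp, Acadm, Pex2 and Bola1 the mice given cells lie above the Con A + PBS mice, and in Klf3, Crim1, Irf5 and Myo10 they lie below them.

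A wider reading of unmoved, an adjusted p of at least 0.05 for Con A + PBS against control, gave 49 genes higher and 80 lower. It takes in genes whose interval for the Con A change was wide, such as Tmem254c, which was 72, 1172, 770 and 1208 in the control mice, 506, 532, 256 and 2132 with PBS and 2, 0, 0 and 109 with cells (log2 fold change -7.19 ± 1.37 SE, adjusted p = 0.0198). Since its values with cells include 0, the size of this change depends on the number added before the logarithm. Tmem254c has near-identical copies among which reads may have been split differently, and its values are uncertain for that reason. Pcp4l1 (chr1:171173262-171196268) was 154, 192, 264 and 164 in the control mice, 122, 322, 264 and 55 with PBS and 368, 574, 555 and 602 with cells (log2 fold change 1.73 ± 0.44 SE, adjusted p = 0.0316), with Con A + PBS mouse 4 the lowest. Eif4ebp3, an inhibitor of translation initiation, was 196, 58, 156 and 228 in the control mice, 224, 565, 658 and 126 with PBS and 1258, 1154, 864 and 864 with cells (log2 fold change 1.67 ± 0.51 SE, adjusted p = 0.0489). For Pcp4l1 and Eif4ebp3 every mouse given cells stood above all 8 others. Among clock genes, 3 of 21 fell (median -0.49, with 0 called without Con A + PBS mouse 4), and Nr1d2, the repressor REV-ERB beta, was 648, 784, 570 and 941 in the control mice, 760, 266, 360 and 925 with PBS and 194, 130, 176 and 316 with cells (log2 fold change -1.39 ± 0.37 SE, adjusted p = 0.0356). Bhlhe40, another clock repressor, which Con A had moved, was 839, 1378, 1162 and 2468 in the control mice, 3642, 1988, 2142 and 6154 with PBS and 1920, 922, 1288 and 1246 with cells (log2 fold change -1.27 ± 0.38 SE, adjusted p = 0.0484).

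A few genes were called in the same direction in both comparisons, so that their values with cells lay further from the control mice than those with PBS. Of genes without overlap and with a mean of at least 200 in the higher group, 3 were called higher in both and 3 lower in both. Med21, a Mediator subunit (chr6:146642547-146650602), was 5040, 3918, 4195 and 3046 in the control mice, 7132, 8238, 7348 and 5567 with PBS and 10356, 8908, 13948 and 10356 with cells (log2 fold change 0.62 ± 0.18 SE, adjusted p = 0.0464). Adora1, the adenosine A1 receptor, was 164, 208, 131 and 241 in the control mice, 318, 310, 257 and 246 with PBS and 347, 393, 567 and 551 with cells (log2 fold change 0.69 ± 0.20 SE, adjusted p = 0.0465). Downward, Gpr116, an adhesion receptor of endothelium, was 656, 446, 344 and 468 in the control mice, 288, 238, 213 and 224 with PBS and 120, 169, 139 and 184 with cells (log2 fold change -0.66 ± 0.19 SE, adjusted p = 0.0434). Cyp3a44 was 2398, 2341, 5393 and 2002 in the control mice, 258, 188, 352 and 206 with PBS and 167, 144, 56 and 89 with cells (log2 fold change -1.21 ± 0.36 SE, adjusted p = 0.048), and it too has near-identical neighbours. Cyp2c69, which was 20917, 11618, 72783 and 18948 in the control mice, and Hpx, which was 72606, 72606, 72606 and 57910, complete the set.

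In bulk tissue fewer cells of a type and less RNA per cell cannot be told apart. None of the 11 neutrophil markers measured was called, and their summed value was between 959 and 2052 with cells and between 1503 and 2406 with PBS, against 135 to 263 in the control mice. The list's median log2 fold change was -0.53 (between -0.67 and -0.40 without any 1 mouse), and 10 of the 11 had a negative sign. S100a9 was 717, 860, 555 and 390 with PBS and 744, 344, 529 and 460 with cells (log2 fold change -0.27 ± 0.30 SE, adjusted p = 0.537). For T and NK cells 10 of 31 listed markers are in the table and none was called, with a summed value of 1174 to 1788 with cells and 1173 to 1900 with PBS. Gzmb, granzyme B, was 627, 625, 504 and 316 with PBS and 590, 334, 357 and 290 with cells (log2 fold change -0.40 ± 0.26 SE, adjusted p = 0.294). Of 18 Kupffer cell markers 1 fell, Cdh5, a gene that is also listed for endothelium (270, 320, 222 and 216 against 186, 196, 146 and 125, log2 fold change -0.66 ± 0.19 SE, adjusted p = 0.0443). That is 5.56% against 4.38% of all genes, and 13 of the 18 had a positive sign (median 0.26). Of 16 markers of monocytes and monocyte-derived macrophages Gpnmb fell (160, 220, 174 and 156 against 92, 74, 82 and 42, log2 fold change -1.32 ± 0.37 SE, adjusted p = 0.0398), and F10, which hepatocytes make in large amount, rose. Each is 6.25% of the list, against 4.38% and 4.20% of all genes. The summed monocyte markers were 66624 to 91362 with cells and 90407 to 149412 with PBS, and Fn1, fibronectin, which hepatocytes also make, held the largest share, with 35920 ± 15220 (SD, n = 4) against 61610 ± 7342 (log2 fold change -0.86, adjusted p = 0.0568). Summed Kupffer cell markers were 6009 to 8189 with cells and 5952 to 9632 with PBS, against 12316 to 17091 in the control mice.

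Among 25 endothelial markers 3 fell and 1 rose. Lyve1, a hyaluronan receptor of sinusoidal endothelium, was 223, 252, 207 and 196 with PBS and 139, 118, 105 and 108 with cells (log2 fold change -0.90 ± 0.19 SE, adjusted p = 0.0224), the adhesion molecule gene Icam1 fell (log2 fold change -0.61) and Stab2, a scavenger receptor, rose (log2 fold change 0.59). The summed endothelial markers overlapped, at 4915 to 6881 with cells and 5235 to 6390 with PBS. In 19 markers of stellate cells and portal fibroblasts Nes, nestin, fell from 70, 73, 54 and 80 to 24, 14, 28 and 22 (log2 fold change -1.64 ± 0.25 SE, adjusted p = 0.0149) and Colec11, a collectin, rose from 14, 12, 11 and 14 to 20, 76, 35 and 22 (log2 fold change 1.31 ± 0.34 SE, adjusted p = 0.0326). Each is 5.26% of the list, near the shares of all genes. No call was made among 9 cholangiocyte, 5 erythroid and platelet and 3 B cell and plasma cell markers, where Spp1 was 5925, 4663, 1992 and 12230 against 4938, 6164, 4840 and 1782, Hbb-bs 1201, 908, 772 and 1330 against 935, 640, 888 and 568 and Igj 102, 114, 105 and 98 against 114, 282, 102 and 168. The list of genes that stromal cells of the infused type express, taken as mouse symbols, had none of 36 called higher and 3 called lower, Nes, Thbs1 (96, 98, 68 and 154 against 44, 50, 33 and 39, log2 fold change -1.26 ± 0.28 SE, adjusted p = 0.0245) and Lox (log2 fold change -0.85). Its summed value was 48563 to 78708 with cells, 83570 to 99781 with PBS and 38193 to 54921 in the control mice, again with Fn1 as its most abundant member. Of 39 matrix, fibrogenic and wound genes 6 fell (2 without Con A + PBS mouse 4), among them Plaur, the urokinase receptor (168, 131, 115 and 220 against 60, 28, 75 and 65, log2 fold change -1.50 ± 0.36 SE, adjusted p = 0.027), Timp3 (log2 fold change -1.27) and Col4a1 (log2 fold change -0.92). Of 34 cytoskeleton genes 8 fell and none rose (median -0.36, with 2 called without Con A + PBS mouse 4), with Tubb6 at 852, 619, 615 and 1682 and 544, 248, 358 and 325 (log2 fold change -1.28 ± 0.30 SE, adjusted p = 0.0266) and Tuba1b at 3486, 3003, 2724 and 3639 and 2021, 1634, 2036 and 1918 (log2 fold change -0.75 ± 0.18 SE, adjusted p = 0.027). Cell cycle genes had 2 of 27 called lower, Ccnd2 (245, 224, 211 and 202 against 102, 82, 76 and 116, log2 fold change -1.24 ± 0.17 SE, adjusted p = 0.0119) and Cdk6 (70, 38, 56 and 75 against 31, 26, 36 and 34, log2 fold change -0.86 ± 0.23 SE, adjusted p = 0.0381), and 1 higher, Mcm10 (log2 fold change 0.74), which is 7.41% and 3.70% and near the shares of all genes. The part of cell composition in the changes of other genes was not tested.

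The mice of a group were not alike across these genes. Over the 474 genes that rose, the mouse given cells nearest to the Con A + PBS group was mouse 4 for 338 genes (71.3%) and mouse 2 for 12 (2.53%), and the Con A + PBS mouse nearest to the mice given cells was mouse 2 for 381 (80.4%) and mouse 4 for 9 (1.90%). Over the 495 that fell, the nearest mouse given cells was mouse 4 for 218 genes and mouse 1 for 186, and the nearest Con A + PBS mouse was mouse 2 for 345. Relative to the Con A + PBS mean, the median log2 difference of the genes that rose was 0.80, 1.08, 0.92 and 0.61 in mice 1 to 4 given cells. For the genes that fell it was -0.75, -1.10, -0.96 and -0.78.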

How the data were processed

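RNA of 12 mouse livers, 4 per group, was sequenced as poly(A)-selected 150 bp paired-end libraries. The submitters' processing notes list Bowtie2 2.2.1, RSEM 1.2.18 and the build mm10. The authors deposited 1 table of whole-number expression values, treated here as a score and not as counts because the values had already been put on a shared scale between mice by a step that is not given in the sources used here. No count test was therefore run, and 0 columns of per-mouse values were left unused. Values were taken as log2(value + 1), and limma 3.58.1 (R 4.3.3) was fitted to all 11289 genes and 12 mice with a mean-variance trend, which gives p-values for the spread between mice. A gene was called where the adjusted p was below 0.05 and the fold above 1.5. Genes named were, among those without overlap, the 8 largest changes in each direction, the 6 among genes unmoved by Con A, and up to 4 moved the same way by Con A (mean of at least 200 in the higher group), plus the 2 largest called members of each of 39 pathway and 10 marker lists, or where none was called the most abundant; members named beyond these were chosen after their values were seen. The comparison, its members and the lists were chosen with earlier results of these data known. Alternatives were other pseudocounts, filters, normalizations and thresholds, a replicate block and leaving out each mouse, and, chosen after the data were seen, centring by transcript length and GC content. On simulated data with 200 of 11289 genes changed, the fit recovered 52% of changes of 0.8 and 92.5% of 1.5 on the log2 scale. Gene positions and transcript lengths came from GENCODE M21 (GRCm38), promoter windows from RefSeq. Plots were drawn with Python. Results for some items are not reported here.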

Additional observations from a re-analysis of the deposited data

Results flagged for a closer look

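Among 313 groups of 4 mice tested for the named genes, 14 held 1 mouse whose distance from the others was large for the spread of its group by Dixon's criterion at 95%, against about 1 in 20 that chance would give. In the Con A + hWJ-MSCs group these were the low Bhmt value of mouse 4 (58393), the low Pcp4l1 value of mouse 1 (368), the high Myo10 value of mouse 2 (450), the low Mdh1 value of mouse 4 (10968), the low Nr1i3 value of mouse 3 (2830) and the low Bag3 value of mouse 2 (568). In the Con A + PBS group they were the low Mat1a value (148316) and the high Mrpl49 value (281), both of mouse 2. In the control group they were the low Bhmt value of mouse 2 (72892), the low Hpx value (57910) of mouse 4, the low Tmem254c value (72) and the high Hfe2 value (1624), both of mouse 1, and the high Ccdc167 (152) and Nos2 (6) values of mouse 3. The values of Bhmt, Mat1a and Hpx lie on the widely spaced top steps of the table, where neighbouring values differ by large factors.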

How the results depend on the processing

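Without any 1 mouse, the genes called higher numbered 4 to 846 and those called lower 2 to 729, and the genes unmoved by Con A 0 to 31 and 1 to 34. By unadjusted p the counts were 910 and 787, at a fold above 2 they were 163 and 190 (0 and 1 among the unmoved, and 1107 and 1284 for Con A + PBS against control), and with Con A judged by an adjusted p of at least 0.05 the unmoved genes were 49 and 80. Centring by transcript length, chosen after the data were seen, gave 10 and 7 of the unmoved kind, and 5 of the 17 and 6 of the 18 genes kept the call itself; the cause was not tested. Mice of different groups share replicate numbers, but the correlations of same-numbered deviations (-0.043, 0.37, -0.087 and 0.24) do not pair them. With the replicate block 679 and 618 genes were called, and 27 and 28 of the unmoved kind. Of the 97 named genes called, 27 lost the call when only the 8 mice compared were fitted, 23 with length centring, 19 without the trend, 6 with the block, 5 with GC centring, 2 with quantile normalization and 1 with a pseudocount of 10. All kept their direction in these fits, which genes chosen by their call were nearly bound to do. Changes of sign were seen in 4 genes that were not called: Hmgcs1 (0.097 without Con A + PBS mouse 4, lowest -0.56), Rpsa (0.021 without Con A + hWJ-MSCs mouse 2 or 4, 0.041 without Con A + PBS mouse 4, lowest -0.082), Cd74 (-0.15 with length centring, -0.13 without Con A + hWJ-MSCs mouse 2, -0.12 without Con A + PBS mouse 3, highest 0.33) and Spp1 (0.052 without Con A + hWJ-MSCs mouse 4, 0.082 without Con A + PBS mouse 4, lowest -0.79). Depth is unknown, so what it limits could not be given.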
